A study of Mus musculus with 2 samples.

Results

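Memory-like CD8 T cells, the cells of subcluster 10 of a mouse tumour data set, were set against effector CD8 T cells, the cells of subcluster 1. The subcluster numbers are those of the authors' deposited annotation at clustering resolution 0.8. Subcluster 10 held 129 cells and subcluster 1 held 785 cells of 5976 cells in all. Single-cell RNA was read from CD45+ JAML+ cells sorted from B16F10 tumours, a transplantable mouse melanoma, with the 10x Genomics 5' v2 chemistry in 1 gene expression library. The hashtag names give 3 tumours of isotype control antibody mice, so both groups of cells carry the same tumour and the same control treatment, and no other treatment was part of these data. The design text gives n = 3, and each hashtag was taken as 1 mouse. Strain, sex and age were not given in the sources used here. In the labels the sorted material is described as T cells, and the extraction text names a TREG sort.

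CD8 T cells recognise peptide on major histocompatibility complex class I and, once activated, move to tissue, secrete chemokines and kill target cells with granzymes and perforin. Memory and stem-like CD8 T cells keep the transcription factor TCF-1, encoded by Tcf7, and CCR7, a receptor that lets a lymphocyte enter lymph nodes. In tumours, Tcf7-expressing CD8 T cells are known as the cells that renew the effector and exhausted populations. Dapl1, a small protein related to death-associated protein, is a known transcript of naive and memory CD8 T cells, and Ccl5 encodes a chemokine stored and released by effector and memory CD8 T cells.

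The hashtags, short oligonucleotides joined to antibodies that mark every cell of a mouse, are shown because they set the replicate unit of every comparison below.

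mouse 1 hashtag: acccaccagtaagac

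mouse 2 hashtag: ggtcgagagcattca

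mouse 3 hashtag: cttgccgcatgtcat

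Hashtags placed 41, 22 and 66 cells of subcluster 10 in mice 1, 2 and 3, against 64, 124 and 597 cells of subcluster 1. As a share of each mouse's cells, subcluster 10 made up 1.68, 1.86 and 2.82%, against 2.62, 10.5 and 25.5% for subcluster 1. Mouse 3 thus gave most cells of subcluster 1, while the share of subcluster 10 varied less between mice. All cells of both subclusters lay in the authors' cluster named for Cd3g, and no cell name occurred more than once.

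Cells of subcluster 10 held more transcripts. Median counts of unique molecular identifiers (UMIs, 1 per captured RNA molecule) per cell were 12858, 14593 and 11751 in subcluster 10, against 8116, 8509 and 8592 in subcluster 1. The medians of the percent of UMIs from ribosomal protein genes were 40.5, 39.0 and 40.4% in subcluster 10, against 28.3, 27.6 and 26.5% in subcluster 1. Both measures were higher in 3 of 3 mice, and the exact two-sided sign-flip permutation test gave p = 0.25 for each, the smallest p that 3 pairs allow. Summed over cells, the sums held 601823, 352731 and 870014 UMIs in subcluster 10, against 593323, 1122410 and 5286142 UMIs in subcluster 1. Mouse 2 of subcluster 10 was thus the shallowest sum.

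Defining markers are set beside the labels as a description. The subclusters were drawn from these same counts, so the markers cannot check the labels. Transcripts of CD8 (Cd8a or Cd8b1) and of CD3 without any Cd4 UMI were found in 117 of 129 cells of subcluster 10 and in 711 of 785 cells of subcluster 1. Leading genes were those with the largest fold over all other cells, among genes found in at least 25% of the subcluster's cells. Those that led subcluster 10 were Tdrp, Dapl1, Tmem108, Tcf7, F2rl1, Nsg2, Satb1, Lef1, Sidt1 and Lcn4. Those that led subcluster 1 were Actn2, Ccl5, Cd6, Cd5, Gm30054, Gzmk, Bcl11b, Gm20069, Itga1 and Rora. Of 10 markers listed for memory-like CD8 T cells 6 were called higher in subcluster 10 and 2, the shared CD8 T cell genes Cd8a and Cd3e, lower. Of 11 markers listed for effector CD8 T cells 10 were called lower, Cd8a and Cd3e among them. Over all genes compared, 7.74% were called higher and 6.45% lower. The lists hold Dapl1, Tcf7 and Ccl5 and were chosen with earlier results of these data known.

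UMI counts were summed per mouse and subcluster and compared in pairs within mice. Levels below are summed UMIs as CPM, scaled to a common library total with TMM, a factor that keeps a few abundant genes from shifting all others. A gene was called where the adjusted p of edgeR's quasi-likelihood test with Benjamini-Hochberg adjustment was under 0.05. The authors drew the subclusters from these same counts, so calls and folds describe differences between the cell groups within mice and test nothing. A gene could be called although its levels overlapped over the mice or a mouse went the other way. Fold changes are log2 of subcluster 10 over subcluster 1. The value after ± is a standard error, worked out as the unshrunk fold divided by the square root of the test's F statistic. For genes with few UMIs it can be smaller than counting error alone, so it does not show how certain those folds are.

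Of 6244 genes compared, 483 were called higher and 403 lower in subcluster 10, 7.74 and 6.45% of them, or 14.2% in either direction. With library size alone and no TMM factor, the median of all genes moved to -0.30 and the calls became 309 higher and 1344 lower, so 18.7% of calls were higher, against 54.5% with TMM scaling. Changes below are relative to the TMM-scaled median of all genes, which was -0.01. With library size alone all 17 lists described below had a lower median and 15 had more members called lower. Without mouse 3 the calls numbered 545, against 886 with all mice. For 28.7% of genes the levels of the subclusters did not overlap over the mice, and nothing is read from that share, since the subclusters were drawn from these counts.

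**Figure D1:**
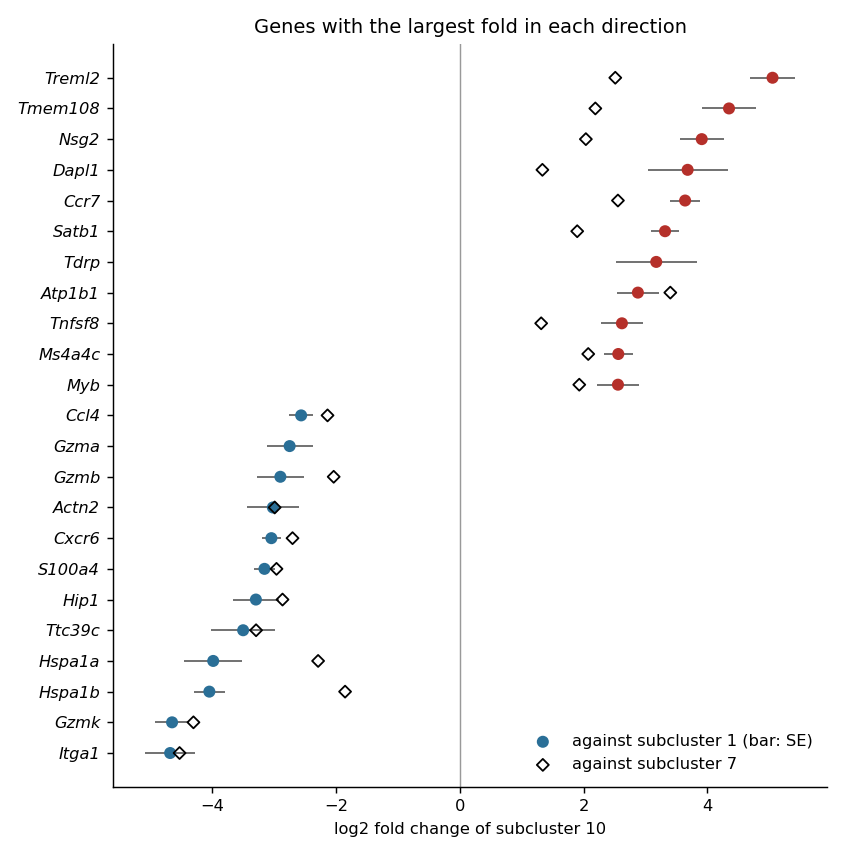
Log2 fold change of subcluster 10 over subcluster 1 (filled circles, bars are the standard error) and over subcluster 7 (open diamonds, where compared) for genes with the largest fold in each direction, 11 higher and 12 lower. Treml2 lies farthest right and Itga1 farthest left, and every diamond lies on the same side of 0 as its circle.

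The promoters of 3 genes are shown because Dapl1 marks subcluster 10 and Gzmk and Itga1 had the largest negative folds. Each run is the 250 bases before a RefSeq start on the gene's own strand, in the GRCm38.p6 build, in lower case with searched motifs in capitals. The motifs were the TCF and LEF core, written CTTTGAT or CTTTGAA, and the T-box core GGTGTGA, each on both strands.

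Dapl1, chr2:59484403-59484652, plus strand: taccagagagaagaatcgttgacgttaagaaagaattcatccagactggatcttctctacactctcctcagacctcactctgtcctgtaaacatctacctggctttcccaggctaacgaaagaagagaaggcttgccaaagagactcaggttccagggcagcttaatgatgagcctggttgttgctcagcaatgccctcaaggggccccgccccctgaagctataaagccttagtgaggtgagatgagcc

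Gzmk, chr13:113180966-113181215, minus strand: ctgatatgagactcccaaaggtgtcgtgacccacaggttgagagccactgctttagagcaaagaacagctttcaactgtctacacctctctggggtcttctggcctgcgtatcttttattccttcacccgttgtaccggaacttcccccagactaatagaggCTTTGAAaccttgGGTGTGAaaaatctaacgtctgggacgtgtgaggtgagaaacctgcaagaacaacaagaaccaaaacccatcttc

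Itga1, chr13:115101965-115102214, minus strand: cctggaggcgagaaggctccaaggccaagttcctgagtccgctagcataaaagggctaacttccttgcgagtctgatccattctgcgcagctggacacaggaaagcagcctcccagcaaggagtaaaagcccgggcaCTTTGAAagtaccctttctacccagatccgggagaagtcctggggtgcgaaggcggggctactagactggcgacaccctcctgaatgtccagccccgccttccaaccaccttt

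The Gzmk run holds CTTTGAA 88 bases and GGTGTGA 75 bases before the start, and the Itga1 run holds CTTTGAA 113 bases before it, all on the gene's strand. The Gzmk run lies inside the gene's span in the GENCODE vM21 annotation, chr13:113171608-113225908, whose own start is farther upstream. None of the searched letters occurs in the Dapl1 run. The table matched 370 of the 483 genes called higher and 297 of the 403 called lower, some with several starts. Over the 300-base windows of the table, the TCF and LEF core was found in 6.32% of 475 windows of genes called higher, 6.17% of 373 windows of genes called lower, 5.71% of windows of all genes compared and 8.65% of all windows. The T-box core was found in 2.74% of windows of genes called higher and 5.63% of windows of genes called lower, beside 3.18% for all genes compared. Exact intervals of the T-box shares ran from 1.47 to 4.63% for genes called higher and from 3.52 to 8.48% for genes called lower, and overlapped. The interval of genes called lower lay above the 3.18% of all genes compared. Some genes gave several windows, and the intervals treat each window as independent. A match is a description of letters and says nothing of binding.

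Memory and stem-like transcription factors stood higher in subcluster 10 as a group. Of 15 listed genes 14 were compared, 10 were called higher and none lower, and their median log2 fold change was 1.67, beside -0.01 for all genes. DESeq2 called 8 of 15 higher. Satb1, a chromatin organiser of T cells, had 348, 377 and 401 CPM in subcluster 10, against 66.03, 46.6 and 24.2 CPM in subcluster 1. Its lowest level in subcluster 10 lay above its highest level in subcluster 1, with a log2 fold change of 3.31 ± 0.23. Tcf7 had 443, 364 and 378 CPM in subcluster 10, against 89.6, 129.7 and 49.4 CPM in subcluster 1. The Tcf7 levels did not overlap either, and the log2 fold change was 2.30 ± 0.20.

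Lef1, the close relative of Tcf7 that binds the same DNA core, had 129.7, 239 and 226 CPM in subcluster 10, against 58.2, 69.8 and 72.8 CPM in subcluster 1, a log2 fold change of 1.57 ± 0.15 with no overlap. Myb had 61.1, 59.7 and 36.2 CPM in subcluster 10, against 4.72, 5.82 and 9.59 CPM in subcluster 1, and its log2 fold change of 2.55 ± 0.35 was 3.45 without mouse 3. Eomes, a T-box factor of memory and killer lymphocytes, had 74.1, 107 and 49.6 CPM in subcluster 10, against 18.9, 12.5 and 25.05 CPM in subcluster 1, with a log2 fold change of 1.75 ± 0.31, or 2.59 without mouse 3. Ikzf2, which encodes the zinc finger factor Helios, had 259, 286 and 40.2 CPM in subcluster 10, against 53.5, 24.1 and 12.6 CPM in subcluster 1. The Ikzf2 level of mouse 3 in subcluster 10 lay below that of mouse 1 in subcluster 1, so the groups overlapped, while each mouse was higher in subcluster 10. Id3 and Bach2 had log2 fold changes of 1.73 and 1.73 and Foxp1 one of 0.74, all called higher. The calls of Id3 and Bach2 were lost with DESeq2. That of Id3 was also lost without the pairing within mice, and that of Bach2 without mouse 3. Zeb1, Foxo1, Klf3 and Ets1 were not called, with log2 fold changes between -0.13 and 0.57, and Bcl6 was too low to compare.

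Effector transcription factors gave 4 genes called lower and none higher of 12 compared, with a median log2 fold change of -0.37. Id2, which restrains E-protein factors in effector lymphocytes, had 139, 141 and 137 CPM in subcluster 10, against 759, 555 and 567 CPM in subcluster 1. Each of the 3 levels in subcluster 10 was below each of those in subcluster 1, with a log2 fold change of -2.17 ± 0.13. Rora, a nuclear receptor family factor, had 25.9, 15.7 and 21.4 CPM in subcluster 10, against 95.9, 98.1 and 73.5 CPM in subcluster 1, again with no overlap and a log2 fold change of -1.99 ± 0.22. Bhlhe40, a factor of tissue-resident T cells, had a log2 fold change of -1.06 ± 0.20. That of Hopx was -0.38 ± 0.12, and its call was lost without any 1 of the mice. Tbx21, which encodes the effector factor T-bet, was not called at -0.40 ± 0.23, and Zeb2 was not called at -1.20 ± 0.43. Prdm1, Irf4 and Zfp683 were too low to compare.

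Genes of lymph node homing and tissue exit differed widely. Ccr7, the chemokine receptor that guides cells to lymph nodes, had 150.0, 144 and 193 CPM in subcluster 10, against 25.2, 14.97 and 10.5 CPM in subcluster 1. Its levels did not overlap, and its log2 fold change of 3.64 ± 0.25 was 2.93 without mouse 3. Klf2, a factor known to drive S1pr1, had 874, 769.6 and 1896 CPM in subcluster 10, against 395, 353 and 361 CPM in subcluster 1, a log2 fold change of 1.61 ± 0.19.

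S1pr1, the sphingosine phosphate receptor for exit from tissue, had 59.3, 123 and 115 CPM in subcluster 10, against 64.5, 44.1 and 33.2 CPM in subcluster 1. In mouse 1 subcluster 10 was the lower one, the groups overlapped, and the call at 1.25 ± 0.27 was lost without mouse 3 and with DESeq2. Itga4, the alpha chain of an integrin for inflamed vessels, went the other way, with 104, 123 and 113 CPM in subcluster 10, against 279.8, 402 and 499 CPM in subcluster 1, and a log2 fold change of -1.81 ± 0.15. Of 11 genes of this list compared, 5 were called higher and 1 lower. Their median was 0.13 with TMM scaling and -0.15 with library size alone, and without mouse 3 the number called higher was 3.

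**Figure D2:**
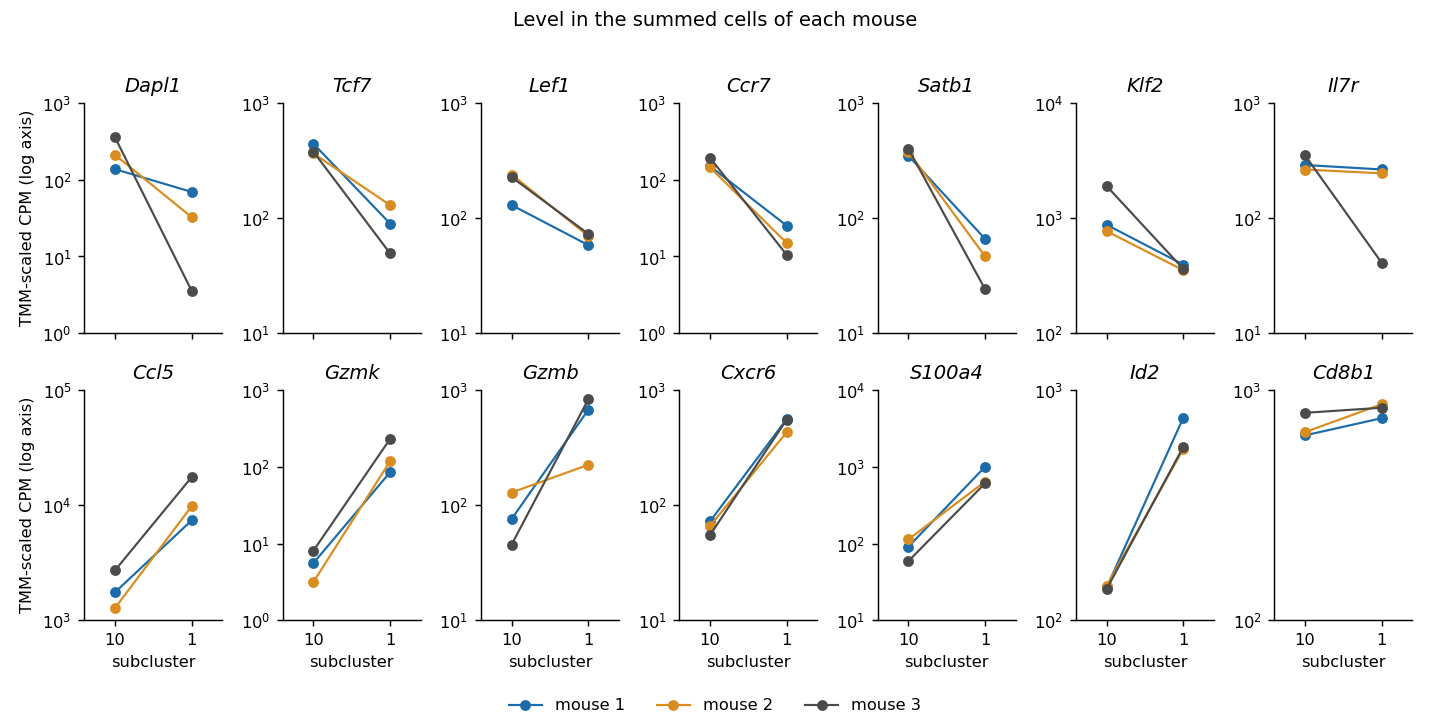
Level of 14 genes in the summed cells of each mouse, in TMM-scaled CPM on a log axis, with subcluster 10 left and subcluster 1 right and a line for each of the 3 mice. Lef1 and Satb1 drop and Gzmk, Cxcr6 and Id2 climb towards subcluster 1 in each mouse, while Il7r differs mainly in mouse 3, where subcluster 1 had 40.9 CPM.

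In the GRCm38 build with GENCODE vM21 genes, Dapl1 is at chr2:59484653-59505020 on the plus strand, Tcf7 at chr11:52252371-52283014 on the minus strand and Ccl5 at chr11:83525778-83530518 on the minus strand. Dapl1 had 137, 210.5 and 356 CPM in subcluster 10, against 69.2, 32.4 and 3.55 CPM in subcluster 1. The levels did not overlap, but the pairs differed unequally: mouse 1 showed the smallest gap and mouse 3 the largest. The log2 fold change of 3.68 ± 0.65 was 4.85 without mouse 1 and 1.85 without mouse 3, both still called, and the call was lost with DESeq2. Without cells that held UMIs of B cell or macrophage genes it was 4.37. Il7r, the interleukin 7 receptor chain that memory cells need for survival, had 289, 264 and 351 CPM in subcluster 10, against 264, 244 and 40.9 CPM in subcluster 1. Subcluster 1 of mice 1 and 2 thus reached the levels of subcluster 10 or nearly so, and Il7r was not called at 1.19 ± 0.41. It was 0.13 and not called without mouse 3, and was called without mouse 1 at 1.73, without mouse 2 at 1.71, in thinned cells at 1.91 and in the CD8 gate at 1.83. It was also called with no filter on low counts at 1.14 and with library size alone at 0.91. Without cells that held UMIs of B cell or macrophage genes it was called at 1.28.

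Further genes had large positive folds. Treml2, a receptor of the TREM family, had 42.6, 65.96 and 76.4 CPM in subcluster 10, against 3.14, 1.66 and 1.95 CPM in subcluster 1. This was the largest fold of any gene compared, 5.05 ± 0.36 on the log2 scale, with no overlap. Tmem108 and Nsg2, genes best known from neurons, had log2 fold changes of 4.35 ± 0.44 and 3.91 ± 0.36, or 3.18 and 3.02 without mouse 3. Tdrp had a log2 fold change of 3.17 ± 0.65, or 4.03 without mouse 1. Atp1b1, a subunit of the sodium pump, had 61.1, 47.1 and 33.5 CPM in subcluster 10, against 9.43, 3.33 and 5.33 CPM in subcluster 1, a log2 fold change of 2.88 ± 0.34. Tnfsf8, which encodes the ligand of CD30, and Ms4a4c, a membrane protein of lymphocytes, had log2 fold changes of 2.62 ± 0.34 and 2.56 ± 0.23. Neither gene overlapped between the groups.

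Among cytokine receptors, 4 of 16 compared were called higher and 1 lower, with a median of 0.15 that was -0.14 with library size alone. Without mouse 1, 8 were called higher. The receptor chains for interleukin 6 stood out by fold. Il6ra had 27.8, 43.98 and 49.6 CPM in subcluster 10, against 14.1, 9.15 and 5.86 CPM in subcluster 1, and its log2 fold change of 2.42 ± 0.38 was 1.66 without mouse 3. Il6st, which encodes the signalling chain gp130, had 38.9, 56.5 and 36.2 CPM in subcluster 10, against 7.86, 9.98 and 6.75 CPM in subcluster 1, a log2 fold change of 2.41 ± 0.30. Il4ra followed at 1.58 ± 0.24 and Il27ra at 0.60 ± 0.16, while Il10ra was lower at -1.05 ± 0.29. The call of Il27ra held in 8 of 13 alternatives and that of Il10ra in 7 of 13.

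Chemokine genes separated the subclusters in both directions. Ccl5 had 1752, 1278 and 2718 CPM in subcluster 10, against 7395, 9812 and 17550.1 CPM in subcluster 1. Although no level in subcluster 10 came near those in subcluster 1, Ccl5 was still among the abundant transcripts of subcluster 10, and the log2 fold change was -2.56 ± 0.13. Ccl4 and Ccl3, chemokines of activated T cells, had log2 fold changes of -2.56 ± 0.19 and -2.50 ± 0.21. Xcl1, the chemokine that attracts type 1 dendritic cells, had 737, 123 and 174 CPM in subcluster 10, against 77.04, 78.98 and 33.2 CPM in subcluster 1. Mouse 1 was far above the other mice for Xcl1 in subcluster 10, the groups did not overlap, and the log2 fold change of 2.23 ± 0.30 was 1.56 without cells that held UMIs of B cell or macrophage genes. After thinning, a single cell of mouse 1 held 44 Xcl1 UMIs, at a mean of 2.46 per cell over 41 cells. The most in any cell of mice 2 and 3 was 2 and 6 UMIs. The summed levels of natural killer cell and dendritic cell markers were also highest in mouse 1 of subcluster 10, at 665 and 3303 CPM, and their part in the Xcl1 level was not tested.

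Of 7 chemokine receptors compared 4 were called lower and 2, Ccr7 and Cxcr4, higher. The Cxcr4 call was lost with DESeq2 and without mouse 3. Cxcr6, the receptor for Cxcl16 on tissue T cells, had 72.2, 65.96 and 54.9 CPM in subcluster 10, against 559.7, 431 and 554 CPM in subcluster 1. It was lower in each mouse, with a log2 fold change of -3.05 ± 0.15 and no overlap. Cxcr3, the receptor for interferon-induced chemokines, had a log2 fold change of -1.01 ± 0.13. Ccr2 had one of -2.56 ± 0.30, which was -3.50 without mouse 1 and -1.88 without mouse 3.

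Cytotoxicity genes gave 10 called lower and 1 higher of 17 compared, with a median log2 fold change of -0.83. DESeq2 called 7 of 21 lower. Gzmk, a granzyme of early effector and memory T cells, had 5.56, 3.14 and 8.04 CPM in subcluster 10, against 84.9, 118 and 230.0 CPM in subcluster 1. It had the second largest negative fold of all genes, -4.65 ± 0.27, with no overlap, and subcluster 10 rested on 3, 1 and 6 UMIs. Gzmb, the granzyme of cytotoxic granules, had 75.9, 129 and 45.6 CPM in subcluster 10, against 676, 224 and 833 CPM in subcluster 1. In mouse 2 the Gzmb gap was smallest, and the log2 fold change of -2.90 ± 0.38 was -3.68 without mouse 2 and -2.12 without mouse 3.

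Gzma had 3.70, 31.4 and 9.38 CPM in subcluster 10, against 11.01, 78.98 and 141 CPM in subcluster 1. The Gzma groups overlapped, and the log2 fold change of -2.75 ± 0.37 was -1.35 without mouse 3. Fasl, the ligand of the death receptor Fas, and Ifng, which encodes interferon gamma, had log2 fold changes of -2.37 ± 0.32 and -1.84 ± 0.34, and Prf1, which encodes perforin, one of -0.80 ± 0.18. Nkg7, a granule membrane protein, had 1069, 1084 and 1279 CPM in subcluster 10, against 2036, 2352 and 2776 CPM in subcluster 1, a log2 fold change of -1.06 ± 0.09 with no overlap. Gzmm was the member called higher, at 1.17 ± 0.37, in 2 of 3 mice, a call that held in 4 of 11 alternatives.

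**Figure D3:**
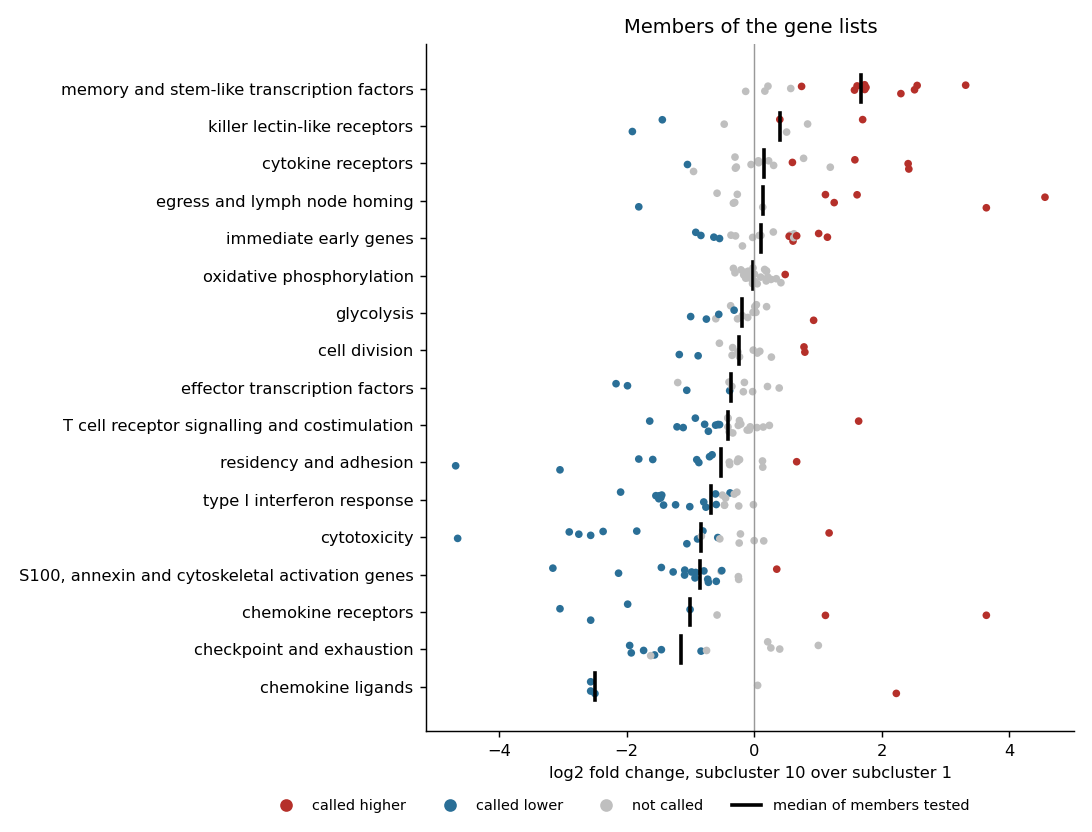
Log2 fold change of subcluster 10 over subcluster 1 of each compared member of 17 gene lists (points, red called higher, blue called lower, grey not called), with the median of each list as a black bar. The memory and stem-like transcription factors have the highest median, 1.67, and the chemokine ligands the lowest, -2.50.

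Checkpoint and exhaustion genes were called lower in 6 of 12 compared and higher in none, with a median of -1.14, and DESeq2 called 3 lower. Pdcd1, which encodes the inhibitory receptor PD-1, had 35.2, 65.96 and 6.70 CPM in subcluster 10, against 121, 86.5 and 80.5 CPM in subcluster 1. Mouse 3 of subcluster 10 had the lowest level and the groups did not overlap. The log2 fold change of -1.73 ± 0.34 was -2.44 without mouse 2 and -1.10 without mouse 3, and DESeq2 did not call it. Tox, a factor of exhausted T cells, had 40.8, 53.4 and 32.2 CPM in subcluster 10, against 176, 145 and 144 CPM in subcluster 1, a log2 fold change of -1.95 ± 0.19. Lag3 and Ctla4, inhibitory receptors, had log2 fold changes of -1.46 ± 0.19 and -1.56 ± 0.22, without overlap. Cd38 was called lower at -1.93 ± 0.36 and not called without mouse 3, at -1.29. Slamf6, a surface marker often used for stem-like T cells, was not called at 0.21 ± 0.18, nor was the inhibitory receptor gene Btla at 1.005 ± 0.39.

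Residency and adhesion genes were called lower in 8 of 16 and higher in 1, with a median of -0.53. Itga1, the CD49a chain of a collagen receptor found on tissue-resident T cells, had 1.85, 0 and 4.02 CPM in subcluster 10, against 25.2, 43.2 and 105 CPM in subcluster 1. Its log2 fold change of -4.68 ± 0.40 was the largest negative one, and subcluster 10 rested on 1, 0 and 3 UMIs. The member called higher was Cd69, an activation and retention receptor, with 379.7, 324 and 511 CPM in subcluster 10, against 255, 255 and 261 CPM in subcluster 1. Its log2 fold change was 0.67 ± 0.13, with no overlap. Itgae, the CD103 chain, had 1.85, 12.6 and 0 CPM in subcluster 10, against 17.3, 21.6 and 6.04 CPM in subcluster 1, and was too low to compare. Jaml, the gene of the protein used for the sort, had 178, 185 and 109 CPM in subcluster 10, against 169.8, 209 and 208 CPM in subcluster 1. The groups overlapped for Jaml, and it was not called at -0.39 ± 0.17.

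S100, annexin and cytoskeletal activation genes were called lower in 14 of 18 and higher in 1, with a median of -0.85. The member called higher was Tagln2 at 0.35 ± 0.11, a call that held in 3 of 13 alternatives. S100a4, a calcium-binding protein of motile cells, had 90.8, 113 and 58.97 CPM in subcluster 10, against 999.9, 642 and 609 CPM in subcluster 1. The groups lay far apart, with a log2 fold change of -3.16 ± 0.16. S100a6 had 333, 556 and 371 CPM in subcluster 10, against 1621, 1648 and 2082 CPM in subcluster 1, again without overlap and with a log2 fold change of -2.13 ± 0.14. The galectin genes Lgals3 and Lgals1 were lower by smaller folds, -1.46 and -1.27, and Vim was not called at -0.24.

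Type I interferon response genes were called lower in 14 of 22 and higher in none, with a median of -0.68 and no member above 0. With DESeq2 7 of 24 were called lower, and in thinned cells 7 of 17. Members above 0 numbered 2 without mouse 1 and 2 without mouse 3. They numbered 1 with DESeq2, 1 with no filter on low counts and 1 without cells that held UMIs of B cell or macrophage genes. Ifi27l2a, an interferon-induced gene, had 609, 609 and 575 CPM in subcluster 10, against 1953, 1914 and 1231 CPM in subcluster 1. Isg15, which encodes a ubiquitin-like modifier, had 50.01, 104 and 48.2 CPM in subcluster 10, against 175, 213 and 165 CPM in subcluster 1. Neither gene overlapped between the groups, with log2 fold changes of -1.47 ± 0.12 and -1.54 ± 0.17. Rsad2, Ifit3 and Ifit2 were lower at -2.09, -1.49 and -1.42, while Stat2, Irf7 and Irf9 were not called.

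T cell receptor signalling genes were called lower in 9 of 24 and higher in 1, with a median of -0.40. With library size alone 19 were called lower, with a median of -0.69. Cd3g, a chain of the receptor complex, had 898, 1093 and 1013 CPM in subcluster 10, against 1635, 1639 and 1654 CPM in subcluster 1. Subcluster 1 was nearly the same in the 3 mice and lay above subcluster 10 in each, with a log2 fold change of -0.72 ± 0.09. The negative regulators Cd5 and Cd6 had log2 fold changes of -1.21 ± 0.14 and -1.11 ± 0.17. Txk, a kinase of the Tec family, was the member called higher, with 276, 361 and 307 CPM in subcluster 10, against 102, 108 and 95.03 CPM in subcluster 1 and a log2 fold change of 1.64 ± 0.13. Cd8a was lower at -0.57 ± 0.11, while Cd8b1 was not called at -0.23 ± 0.10 and its levels overlapped.

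Killer lectin-like receptors, which sense class I molecules and stress ligands, gave 2 called higher and 2 lower of 7, with a median of 0.40 that was -0.48 without mouse 2. In thinned cells the median was -0.43, with 0 of 6 called higher. Without cells that held UMIs of B cell or macrophage genes it was -0.86. Klrc1 and Klrk1, which encode NKG2A and NKG2D, were lower at -1.91 ± 0.20 and -1.44 ± 0.19, and Klra7, an Ly49 family gene whose near-identical relatives make its counts uncertain, was higher at 1.70 ± 0.26. Klrd1, the CD94 partner chain of NKG2A, was called higher by a smaller fold, 0.40 ± 0.11, a call that held in 4 of 13 alternatives. With every cell thinned to 1 depth Klra7 was not called.

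Immediate early genes went both ways, with 5 called higher and 4 lower of 19 and a median of 0.11, or -0.18 with library size alone. Without mouse 3, 2 were called higher, as with DESeq2, and 8 without mouse 2. In thinned cells 9 were called higher and 3 lower, with a median of 0.43. In the CD8 gate 10 were called higher and 3 lower, with a median of 0.33. Without cells that held UMIs of B cell or macrophage genes, 8 were called higher and 3 lower. Jun, a subunit of the AP-1 factor, had 432, 245 and 759.9 CPM in subcluster 10, against 206, 185 and 237 CPM in subcluster 1, a log2 fold change of 1.15 ± 0.18 with no overlap. Zfp36l2, an RNA-binding protein, was lower at -0.92 ± 0.11.

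The inducible heat shock protein 70 genes Hspa1b and Hspa1a were among the genes with the largest negative folds. Hspa1a had 9.26, 0 and 12.1 CPM in subcluster 10, against 75.5, 471 and 62.7 CPM in subcluster 1. Mouse 2 of subcluster 1 stood far above all others, and a single cell of subcluster 1 held up to 214 UMIs of it after thinning. Cells with a UMI of Hspa1a were 8.53% of subcluster 10 and 4.18% of subcluster 1, the opposite order to the level. Its log2 fold change of -3.99 ± 0.46 was -2.63 without mouse 2 and -5.17 without mouse 3, and was not called with DESeq2. Both genes were too low to compare once cells with UMIs of B cell or macrophage genes were left out. Hspa1a and Hspa1b are near-identical copies, so their counts are uncertain. Actn2, an alpha-actinin, Hip1, an endocytic adaptor, and Ttc39c were lower at -3.02 ± 0.42, -3.30 ± 0.37 and -3.50 ± 0.52. Subcluster 10 rested on 3, 0 and 5 UMIs of Actn2, 1, 1 and 6 of Hip1 and 1, 3 and 1 of Ttc39c. Without mouse 3 the values were -4.08 for Hip1 and -2.62 for Ttc39c, which was -4.62 without mouse 2.

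Oxidative phosphorylation genes gave 1 call of 27, Atp5g1, a subunit of the ATP synthase, at 0.49 ± 0.11, and a median of -0.02. With library size alone 11 were called lower and 0 higher, with a median of -0.30, close to the shift of all genes. The Atp5g1 call was also lost with DESeq2 and without cells that held UMIs of B cell or macrophage genes. Of 15 glycolysis genes, 4 were called lower and 1 higher, with Aldoa, which encodes aldolase, at -0.75 ± 0.11 and Slc2a3, a glucose transporter gene, at -0.996 ± 0.31, a call that held in 6 of 13 alternatives. Pdk1, which encodes a kinase that holds back pyruvate oxidation, was the member called higher, at 0.93 ± 0.25, in 7 of 13 alternatives. Without mouse 1 the number of glycolysis genes called lower was 1. Cell division genes gave 2 called higher, the tubulin genes Tuba1b and Tubb5 at 0.79 ± 0.14 and 0.78 ± 0.11, and 2 lower, Hmgb2 and Cenpa at -0.88 ± 0.11 and -1.17 ± 0.21, of 13 compared. Mki67 was too low to compare.

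Ribosomal protein genes, a list chosen after their values were seen, were called higher in 77 of 80 and lower in none, with a median of 0.80. Their summed level was 471270.0, 467687 and 512966 CPM in subcluster 10, against 278147, 279402 and 269453 CPM in subcluster 1. With library size alone the median was 0.52 and 75 were called higher. These genes have many pseudogene copies, so single members are uncertain.

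Single cells were also compared at 1 depth. Every cell was thinned to 6206 UMIs, which kept all 129 cells of subcluster 10 and 693 of subcluster 1, and left out 92 shallower cells of subcluster 1. Shares are given over these cells with exact Clopper-Pearson 95% intervals that cover counting error only. Cells of the authors' Siglech cluster, named for a gene of plasmacytoid dendritic cells, are set beside them as cells of another type. For Tcf7, Dapl1 and Gzmk they held at most 2 UMIs per cell, a level free RNA can give. For Ccl5 and Ccr7 single cells held up to 105 and 9 UMIs, and Cd8b1 was found in 38.6% of them, so their shares of those genes are values and no background. Their median depth was 13486 UMIs, against 12526 in subcluster 10 and 8550 in subcluster 1 before thinning.

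At least 1 UMI of Tcf7 was found in 84.5% (77.1 to 90.3%) of cells of subcluster 10, against 22.9% (19.9 to 26.3%) of subcluster 1 and 0.459% of the Siglech cluster. The shares per mouse were 85.4, 86.4 and 83.3% in subcluster 10, against 33.3, 45.5 and 17.9% in subcluster 1. Unthinned, Tcf7 was found in 94.6% of subcluster 10 and 31.1% of subcluster 1, and Dapl1 in 39.5% of subcluster 10 and 3.31% of subcluster 1. Dapl1 was found in far fewer cells, 37.98% (29.6 to 46.9%) of subcluster 10, against 3.17% (2 to 4.77%) of subcluster 1 and 0.612% of the Siglech cluster. By mouse, Dapl1 was found in 24.4, 27.3 and 50% of cells of subcluster 10, against 14.6, 8.08 and 1.28% of subcluster 1. Most cells of subcluster 10 in mice 1 and 2 thus showed no Dapl1 UMI at this depth.

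Ccr7 was found in 44.96% of subcluster 10 and 4.76% of subcluster 1, with 3.83% in the Siglech cluster. Satb1 was found in 75.97% of subcluster 10 and 12.7% of subcluster 1, with 17.8% in the Siglech cluster.

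Ccl5 was found in 84.5% (77.1 to 90.3%) of cells of subcluster 10, against 97.4% (95.9 to 98.5%) of subcluster 1. The shares were close, but the mean after thinning was 12.9 UMIs per cell in subcluster 10, against 109 in subcluster 1. In the Siglech cluster 31.5% of cells held a Ccl5 UMI, at a mean of 0.555. At least 5 UMIs of Ccl5 occurred in 50.4% of subcluster 10 and 96.2% of subcluster 1. Tcf7 and Ccl5 occurred in the same cell in 71.3% of subcluster 10, against 21.8% of subcluster 1. Tcf7 without Ccl5 made up 13.2% of subcluster 10, against 1.15% of subcluster 1, and Ccl5 without Tcf7 13.2%, against 75.6%.

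Gzmk was found in 2 of 129 thinned cells of subcluster 10, 1.55% (0.188 to 5.49%), against 62.5% (58.8 to 66.1%) of subcluster 1. The interval of subcluster 10 held the 0.459% of the Siglech cluster, so Gzmk there was not detectable above background at this depth. Gzmb was found in 16.3% of subcluster 10 and 66.96% of subcluster 1, with 4.28% in the Siglech cluster. Cxcr6 was found in 24.03% of subcluster 10 and 85.9% of subcluster 1, with 1.68% in the Siglech cluster. A UMI of Gzma, Gzmb or Gzmk was found in 18.6% of subcluster 10, against 81.1% of subcluster 1. Cells with both Tcf7 and a granzyme UMI made up 14.7% (9.11 to 22.04%) of subcluster 10 and 12.99% (10.6 to 15.7%) of subcluster 1, and these intervals overlapped.

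**Figure D4:**
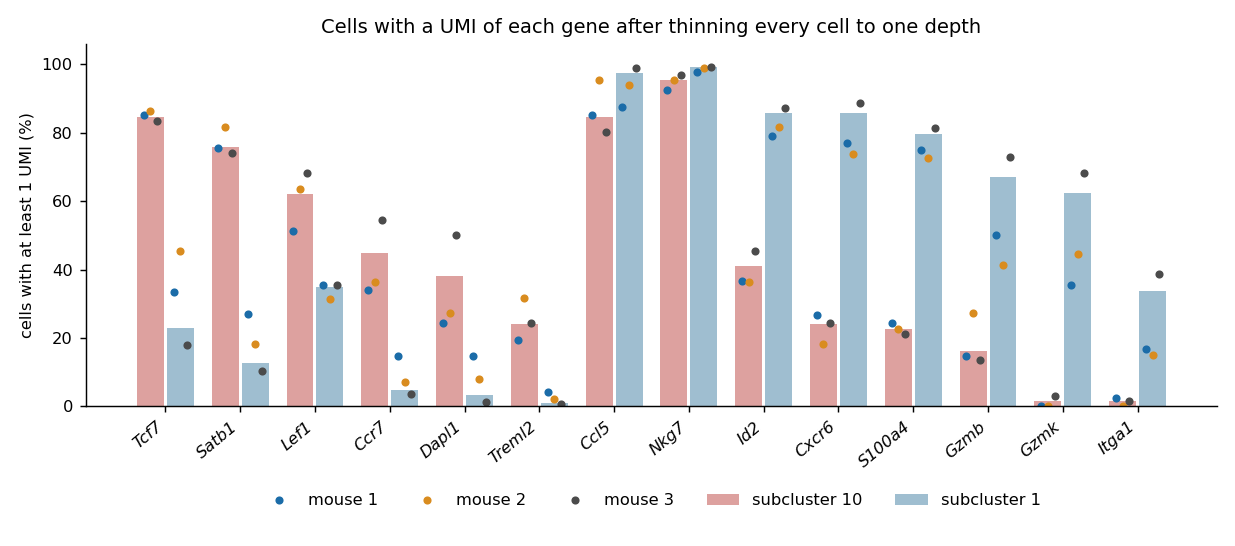
Percent of cells with at least 1 UMI of each gene after thinning to 6206 UMIs, in subcluster 10 (red bars, 129 cells) and subcluster 1 (blue bars, 693 cells), with a point for each mouse. Tcf7 and Ccl5 were both found in 84.5% of cells of subcluster 10, while Gzmk and Itga1 were found in 1.55% each.

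Subcluster 7, a further group of 352 CD8 T cells of the Cd3g cluster, gave a second contrast that shares the cells of subcluster 10 and is set beside the first only as values. Against subcluster 7, 334 genes were called higher and 253 lower of 5560, 6.01 and 4.55% of them, or 10.6% in either direction. With library size alone the median of all genes was -0.27, and 205 were higher and 798 lower, 20.4% of calls higher, against 56.9% with TMM scaling, and without mouse 3 the calls numbered 194. Ccr7 had a log2 fold change of 2.55 ± 0.27 against subcluster 7, beside 3.64 against subcluster 1. Tcf7 had 1.37 ± 0.20 against subcluster 7, and Satb1 1.90 ± 0.25, both called. Dapl1 was not called against subcluster 7, at 1.33 ± 0.51. Gzmk and Cxcr6 were lower against subcluster 7 at -4.30 ± 0.29 and -2.70 ± 0.16, close to their values against subcluster 1.

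Over the 7 CD8 T cell subclusters, scaled together and with at least 10 cells per mouse, Dapl1 was highest in subcluster 10 at 232 ± 112 CPM (SD, n = 3) and next in subcluster 7 at 123 ± 82.3 CPM. Their ranges over mice overlapped, from 134 to 354 and from 27.7 to 172 CPM. The other 5 subclusters had means between 30.4 and 61.5 CPM and could not be ordered within their spread. Tcf7 separated further: its range was 359.6 to 434 CPM in subcluster 10, and the highest value of any other subcluster was 213 CPM, in subcluster 7. The lowest Satb1 value in subcluster 10, 341 CPM, also lay above the highest elsewhere, 236 CPM in subcluster 15.

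Ccl5 in subcluster 10, 1262 to 2698 CPM, overlapped with the Pdcd1-cluster subclusters 5, 8 and 14, whose values ran from 1324 to 4749.9 CPM. Cxcr6 did not overlap with any of them, with at most 70.8 CPM in subcluster 10 and at least 142 CPM elsewhere. Pdcd1 was highest in subcluster 5, at 346 ± 16.3 CPM. Over 19 mouse and subcluster sums, genes whose log2 level followed Dapl1 most closely by Pearson's r included Tnfsf8 (0.82), Ccr7 (0.80), Satb1 (0.76) and Nsg2 (0.75). The sums share mice, library and depth, and these values describe the likeness only.

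**Figure D5:**
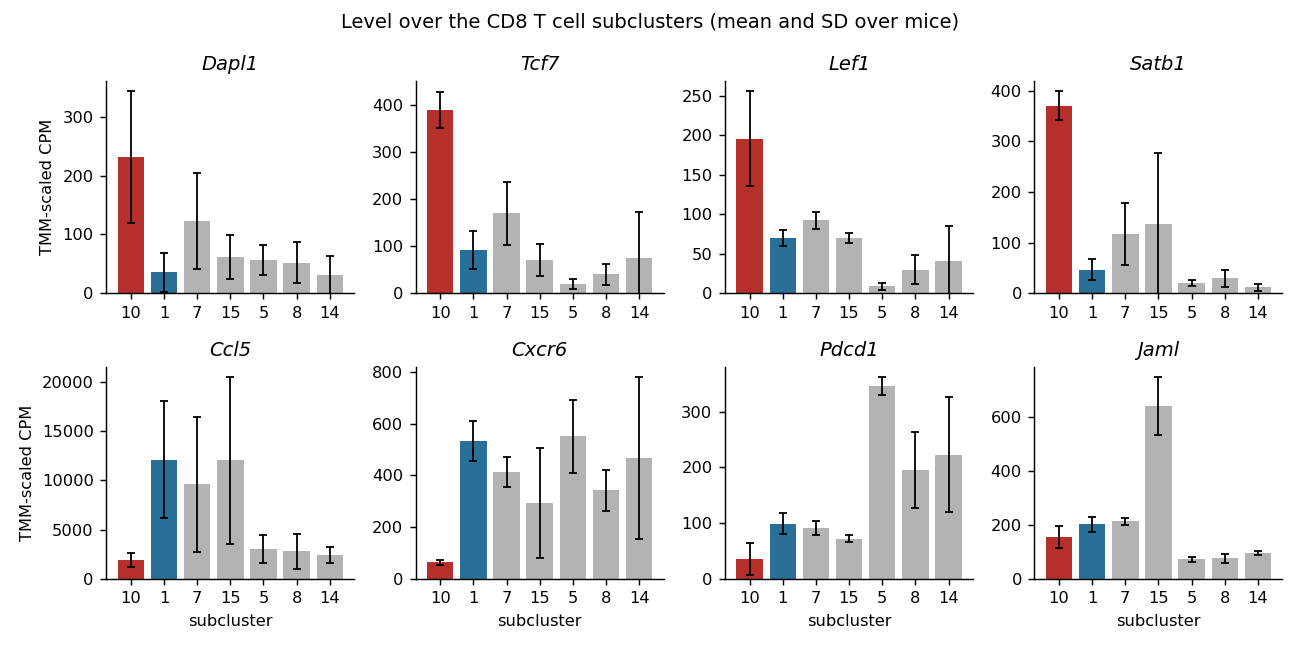
Mean level in TMM-scaled CPM of 8 genes over the 7 CD8 T cell subclusters, with subcluster 10 in red, subcluster 1 in blue and the others in grey, and bars of 1 SD over 3 mice (2 mice for subclusters 15 and 14). Tcf7, Lef1 and Satb1 are highest in subcluster 10 and Cxcr6 is lowest there, while the Dapl1 bars of subclusters 10 and 7 overlap.

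Markers of other cell types varied between mice. The summed level of 12 dendritic cell markers was 3303, 879.5 and 820.2 CPM in subcluster 10, against 2687, 1388 and 1211 CPM in subcluster 1, so mouse 1 was high in both. For 8 natural killer cell markers it was 665, 418 and 237 CPM in subcluster 10, against 341, 179 and 194 CPM in subcluster 1, with Eomes and Klra7 called higher. For 10 macrophage and monocyte markers it was 2149, 1633 and 1906 CPM in subcluster 10, against 1189, 1488 and 2332 CPM in subcluster 1, most of it Ly6c2, which CD8 T cells also express, and none of 3 compared was called. For B cell markers it was 254, 223 and 198 CPM in subcluster 10, against 129, 174 and 184 CPM in subcluster 1, with Cd79a and Ms4a1 at 0 in subcluster 10 and Cd79b called higher at 1.51 ± 0.34. For 7 gamma-delta T cell markers it was 87.1, 226 and 103 CPM in subcluster 10, against 212, 56.5 and 39.97 CPM in subcluster 1. Trdc, the delta chain constant gene, was called higher at 2.33 ± 0.69 in 2 of 3 mice, and had 4.08, 1.55 and 1.54 without mice 1, 2 and 3, with UMIs in 8 of 129 cells of subcluster 10 and 8 of 693 of subcluster 1. B cell or macrophage transcripts (Cd79a, Lyz2 or C1qa, with 2 UMIs or more) were found in 40 of 129 cells of subcluster 10 and 142 of 785 cells of subcluster 1, and without these cells the calls numbered 723. This count was made in unthinned cells, with median depths of 12526 UMIs in subcluster 10 and 8550 in subcluster 1, so the 2 shares are not at like depth. For 6 CD4 T cell markers the sum was 48.2, 56.5 and 41.5 CPM in subcluster 10, against 168, 145 and 134 CPM in subcluster 1, with Cd4 too low to compare and Ctla4 called lower. What part these markers have in the results was not tested.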

How the data were processed

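The deposited matrix holds raw UMI counts of 15416 genes in 5976 cells. The submitters' processing notes name Cell Ranger 3.1.0, Seurat 3.1.5 and mm10. How cells and genes were filtered is not given in the sources used here, and each cell's total count in the deposited annotation equals its matrix total. The percent of UMIs from ribosomal protein and mitochondrial genes, the subcluster and the hashtag of each cell come from the same annotation by the authors. Hashtags left 8 cells without a mouse, which were not used.

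Counts were summed per mouse and subcluster and fitted with edgeR 4.0.16 (R 4.3.3), with TMM scaling, the default low-count filter, the mouse as a block and the quasi-likelihood F test. The pairing is by animal, since both subclusters come from the same 3 mice. The subclusters are the authors' and no doublet caller was run. Named genes were the 12 with the largest fold in each direction among those called, alike in direction in every mouse and with a mean of at least 30 CPM in the higher subcluster (receptor segments, ribosomal protein, mitochondrial and unnamed genes left out), then a fixed set with the 3 markers and Jaml, and the 4 members of each list with the smallest adjusted p. Some genes that the rule names are not reported here. Other list members were named after their values were seen. The members and the lists were chosen with earlier results of these data known. On simulated sums, 97.8% of genes changed by 2 on the log2 scale and 57.5% of those changed by 1 were recovered for subcluster 10 against subcluster 1. The simulation gave all genes the same spread and each mouse effect equally to both subclusters, so these rates need not hold for the real counts. Alternatives were other scalings, filters and tools, thinned cells, a CD8 gate and each mouse left out. A further one removed cells in which Cd79a, Lyz2 and C1qa together had 2 UMIs or more.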

Additional observations from a re-analysis of the deposited data

How the results depend on the processing

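The number of genes called in subcluster 10 against subcluster 1 was 886, and 357 with DESeq2 1.42.0, 539 at an adjusted p under 0.01, 550 with cells thinned to 6206 UMIs and fewer genes compared, and 1653 with library size alone. Leaving out each mouse gave 545 to 853 calls. Against subcluster 7 the number was 587, and 196 with DESeq2, 308 at an adjusted p under 0.01 and 1003 with library size alone. There, leaving out each mouse gave 194 to 654 calls. Both lowest counts were those without mouse 3, which holds most cells of the subclusters. Without the mouse as a replicate block the calls numbered 794 and 519, so the pairing moved neither count by over 1.5 times. With DESeq2's median-ratio size factors in edgeR they numbered 887 and 587, and with no filter on low counts 1128 and 780. With CTTTGAT as the only TCF and LEF core, 2.32% of windows of genes called higher held it, against 6.32% with both spellings. Over 100 named genes and 1279 alternatives, 1184 stayed on the same side of the threshold, 61 lost a call and 34 gained one. No called gene changed sign, while 10 sign changes fell on 5 genes that were not called, Cd74, H2-Ab1, Ly6c2, Lyz2 and Tyrobp. Among the named genes reported here, DESeq2 did not call Dapl1, Hspa1a, Pdcd1, S1pr1, Trdc, Cd79b, Cd38 and Hopx. Nor did it call Klrd1, Il27ra, Atp5g1, Pdk1, Slc2a3, Cenpa and Tuba1b. Of the other list members described as called, it did not call Id3, Bach2, Ifng, Prf1, Rsad2, Ifit2, Il10ra, Gzmm, Cxcr4 and Tagln2. Without the replicate block Hopx, Klrk1, Klrd1 and Trdc were not called, nor were the list members Id3, Lgals3, Il10ra, Gzmm and Tagln2. Thinning moved the log2 fold change of Gzmk to -5.30, of Itga1 to -5.52, of Actn2 to -3.79 and of Ttc39c to -8.17. Before thinning, subcluster 10 held 3, 1 and 6 UMIs of Gzmk and 1, 0 and 3 of Itga1 by mouse. Of Actn2 it held 3, 0 and 5 and of Ttc39c 1, 3 and 1, so the size of these folds is uncertain. The CD8 gate moved Hspa1a to -2.97, Hspa1b to -3.46, Il6ra to 3.05 and Tnfsf8 to 3.28, and DESeq2 moved Tdrp to 2.58. The fits with library size alone and without ribosomal protein genes (774 and 485 calls) were chosen after the data were seen. Mouse 2 gave the fewest cells of subcluster 10, 22. The causes of these shifts were not tested.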

Other observations

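Within subcluster 1 the mice differed in genes of the memory lists. Dapl1 and Il7r were each lowest in mouse 3, with Dapl1 at 69.2, 32.4 and 3.55 CPM and Il7r at 264, 244 and 40.9 CPM in mice 1, 2 and 3. Ccl5 was highest in mouse 3, at 7395, 9812 and 17550.1 CPM. In subcluster 10, Ikzf2 was lowest in mouse 3, at 259, 286 and 40.2 CPM, and Klf2 highest there, at 874, 769.6 and 1896 CPM. With 3 mice these differences between animals have no test.

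The median percent of mitochondrial UMIs was 2.74, 2.63 and 2.65% in subcluster 10, against 2.02, 2.07 and 1.91% in subcluster 1, higher in 3 of 3 mice (exact two-sided sign-flip permutation p = 0.25, the smallest that 3 pairs allow). The median number of genes per cell was 2765, 3074 and 2702 in subcluster 10, against 2413, 2516 and 2502 in subcluster 1.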
